A study of Mus musculus with 16 samples.

Results

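The neocortex on the unlesioned side of the brain was compared between adult mice 1 week after left cortical hemisuction and uninjured adult mice. Hemisuction is the removal of a large part of the cerebral cortex of 1 hemisphere by aspiration, here including the sensorimotor cortex. The animals were selected by their labels: the pool of injured mice is titled ABI 1W (11 weeks of age, the adult brain hemisuction or ABH group of the study, operated at 8 to 12 weeks of age) and the control pool is titled NC 10W (10 weeks of age). All animals were C57BL/6J mice, and no other allele or agent separated the groups. Each pool was labeled with Cy3 for 1 array and with Cy5 for another, so the comparison rests on 4 of the 16 arrays and on 2 of the 8 pools of the series. Pools of neonatal hemisuction, from mice operated at 7 days of age, are named below beside them. These mice were 14 days of age in the 1 week pool (NBI 1W) and 35 days in the 4 weeks pool (NBI 4W). The study placed RNA of 4 male mice in each pool, and the tissue was the right neocortex rostral from bregma. Each group is thus 1 pool without a biological replicate, and the Cy3 and Cy5 arrays repeat the measurement of the same RNA. No test between the groups was possible, no p-value is given, and every ± is the SD over the 2 dyes, which covers the error of labeling and hybridization only. No sham operation is described for the controls, the pools differ by 1 week of age, and all control pools lay in the upper row of the arrays on each slide with all operated pools in the lower row, so that position, anesthesia, skull opening and injury cannot be told apart.

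The removal of cortex on 1 side cuts the callosal axons that link both hemispheres and opens the meninges. Microglia, the resident macrophages of brain tissue, respond to dying axons and myelin by phagocytosis, and a state rich in lysosomal and lipid-handling proteins is known from many kinds of brain damage. Monocytes and neutrophils enter from the blood where the barrier is broken, fibroblasts of the meninges lay down collagen, and astrocytes enlarge and fill with the intermediate filament protein GFAP. Neurons change the expression of activity-dependent transcription factors and of genes for axon growth.

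A level is given below as log2 of the processed spot signal minus the 75th percentile of the array, so that 0 is the signal of a fairly bright probe and −4 is close to the local background. Between 60.2% and 72.2% of the spots of the 16 arrays were well above background, with 71.3% and 71.0% for the control (Cy3 and Cy5) and 62.8% and 68.2% for the ABH 1 week pool. A gene was compared where both arrays of either pool showed its probe well above background, which left 16316 genes, and it was called where the difference reached 1.5-fold in the same direction with both dyes. Where no array of a pool was well above background, the difference is a bound and the fold is written as "at least". Of the 8 defining markers of cortical excitatory neurons and the 5 of interneurons, all were well above background in both pools and none was called.

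In the ABH 1 week pool 934 genes were higher than in the control and 1132 were lower, which is 5.72% and 6.94% of the genes compared. The 2 directions differed in the size of the differences. The rises were large in many genes, with 140 genes at least 4-fold higher with both dyes, 42 at least 8-fold, 19 at least 16-fold and 9 at least 32-fold. Of the lower genes 15 reached 4-fold and 0 reached 8-fold with both dyes, and 314 of the 1132 were bounds against 74 of the 934 higher genes. As a mean over both dyes the largest rise was 6.96 and the largest fall −3.72. Of the lower genes 91.5% lay in the lowest quartile of signal, where the background limits the fall that can be measured. Lower genes made up 54.8% of the calls, but this share depended on the scaling: it was 22.8% with arrays scaled to their median and 26.7% after quantile normalization. Median scaling moved the median difference of all genes from −0.08 to 0.28. The higher calls numbered 1822 and 1332 under these scalings, and the lower calls 537 and 485. The differences measured with Cy3 and with Cy5 had a Pearson correlation of 0.81 across genes, which share the same RNA and are not independent replicates. Their spread between dyes fell from an SD of 0.69 in the lowest quartile of signal to 0.13 in the highest, so small differences are best read in bright genes.

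**Figure D1:**
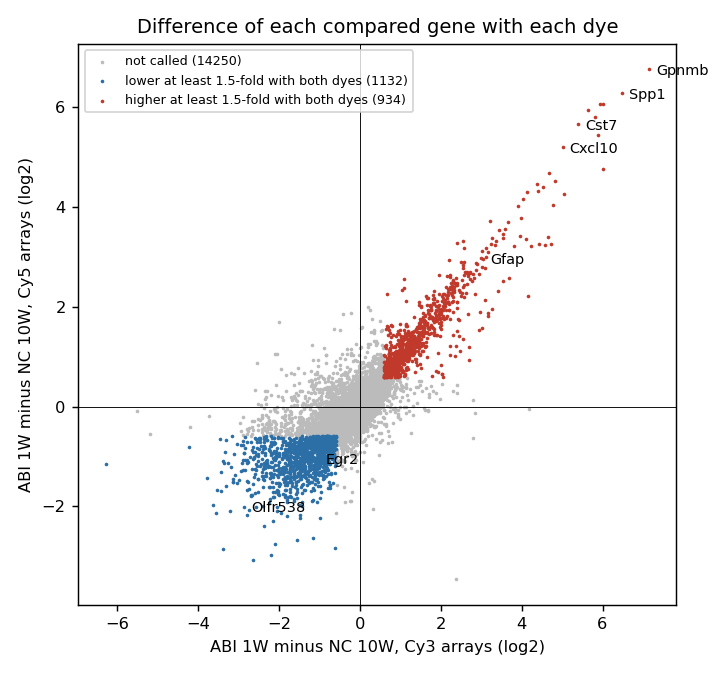
Difference between the ABH 1 week pool and the 10 weeks control (log2) measured with Cy3 (horizontal axis) against that measured with Cy5 (vertical axis) for the 16316 genes compared, with the genes called higher or lower in color. The 934 higher genes reached a mean difference of 6.96 for *Gpnmb* and the lower genes a mean difference of −3.72, and 0 genes fell by 8-fold with both dyes.

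The largest rises belonged to genes of phagocytes. *Gpnmb*, which encodes a membrane glycoprotein of lipid-loaded macrophages, had levels of −3.96 (Cy3) and −3.43 (Cy5) in the control and of 3.20 and 3.32 in the ABH 1 week pool. It moved from near background to well above the 75th percentile, a difference of 6.96 ± 0.28 or 124-fold. *Spp1*, the gene of the secreted phosphoprotein osteopontin, was at −2.59 and −2.55 in the control and at 3.88 and 3.73 after ABH, or 83.2-fold higher. *Lgals3*, which encodes the galectin that marks damaged lysosomes, was at −2.83 and −2.80 and at 3.17 and 3.26, or 65.2-fold higher. The arrays of the pools did not overlap for any of these genes, which is largely set by their choice as genes called with both dyes. *Cst7*, the gene of an inhibitor of lysosomal proteases, was not well above background in the control and stood at 0.34 and 0.45 after ABH, at least 46.3-fold higher. *Itgax*, an integrin subunit of activated microglia and dendritic cells, was at least 21.2-fold higher. Among the 18 genes compared of the lipid-associated phagocyte list 15 were higher and 0 were lower, which is 83.3% higher against the 5.72% of all genes compared, with a median difference of 1.36 against −0.08 over all genes. The lipid receptor gene *Trem2* and its signaling adaptor *Tyrobp*, both bright in the control, were higher by 2.06 ± 0.06 and 2.34 ± 0.11. The members that were not called were *Fabp5* (0.35), *Ctsb* (−0.03) and *Apoe* (−0.10), and *Apoe* encodes the main lipid carrier of the brain. *Trem2*, *Fabp5*, *Ctsb* and *Apoe* are named here after their values were seen.

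Genes that mark microglia at rest moved less. Of 15 genes 5 were higher, 0 were lower and the median was 0.51. *Cx3cr1*, the receptor gene for the neuronal chemokine fractalkine, was at 2.64 and 2.75 in the control and at 3.62 and 3.69 after ABH, or 1.94-fold higher, and *Csf1r*, which encodes the receptor for the survival factor CSF1, 1.82-fold, although of the other probes for *Csf1r* 1 gave 0.82 and 1 gave 0.06. *P2ry12* and *Tmem119*, the markers most restricted to resident microglia, differed by 0.52 and 0.46 and were not called. In a bulk sample more cells of a type and more RNA per cell cannot be told apart.

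Genes of macrophages that enter from blood or line the borders of the brain rose more steeply. In this list 15 of 21 genes were higher and 1 was lower, with a median of 2.26. *Lyz2*, the lysozyme gene of myeloid cells, was at −3.37 and −3.51 in the control and at 2.57 and 2.55 after ABH, or 63.9-fold higher, and its close copy *Lyz1* was 50.8-fold higher, although the near-identical transcripts may share signal between their probes. *Ms4a7*, a tetraspan membrane protein gene of border and blood-derived macrophages, rose from −2.66 and −2.76 to 1.27 and 1.26, a 15.7-fold difference. *Clec4d*, a C-type lectin receptor gene, and *Cd36*, which encodes a scavenger receptor for oxidized lipid, were not well above background in the control and were at least 22.1-fold and at least 12.0-fold higher. *Cd5l*, the gene of a scavenger protein secreted by tissue macrophages, was 55.5-fold higher. The monocyte gene *Plac8* was lower by 0.70 ± 0.01. The receptor gene *Ccr2*, which defines inflammatory monocytes, gave no direction, since it was at −3.12 and −10.43 in the control and at −4.39 and −4.26 after ABH. *Plac8* was chosen after its value was seen. Of the 5 markers fixed for infiltrating macrophages 4 are on the array, of which 1 was well above background in the control and 4 after ABH. Their summed level was −1.83 and −2.65 in the control and 1.35 in both arrays after ABH. This sum is almost that of *Ms4a7* alone, since *Msr1*, *Arg1* and *Ccr2* lay between −4.56 and −4.18 after ABH, close to background. The control sum with Cy3 also holds the *Ccr2* value of −3.12, which Cy5 did not repeat.

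Receptors through which these cells bind antibody and cell debris were higher almost throughout. Of the 16 Fc receptor and ITAM adaptor genes 15 were higher, 0 were lower and the median was 1.63. *Lilrb4a*, an inhibitory immunoglobulin-like receptor gene, was at −4.62 and −4.74 in the control and at 1.20 and 1.06 after ABH, a difference of 5.81 ± 0.01 and the largest of the list. *Pirb*, which encodes a paired inhibitory receptor that also binds MHC class I and myelin proteins, was 6.32-fold higher, and *Ptpn6*, the phosphatase gene that acts below such receptors, was higher by 2.16. *Fcgr2b*, the gene of the inhibitory Fc receptor for IgG, rose from −3.09 and −2.93 to −0.96 and −0.99, or 4.09-fold. *Fcgr3*, the gene of an activating receptor, was at −0.95 and −0.96 and then at 0.53 and 0.61, or 2.88-fold higher. Both promoters hold a short ETS motif of the kind bound by PU.1, the factor that establishes the myeloid lineage. The stretches below give the 200 bases before the annotated start (RefSeq, GRCm38.p6), 5′ to 3′ on the strand of the gene, with the motif in capitals. They were chosen after values and motifs were seen, to show the 2 forms of the motif, GGAAGTGA in *Fcgr2b* and AGAGGAAG in *Fcgr3*, each on the opposite strand, in a pair of neighboring receptor genes: *Fcgr2b* lies at chr1:170976072-170976271 and *Fcgr3* at chr1:171059395-171059594, both on the minus strand.
Fcgr2b: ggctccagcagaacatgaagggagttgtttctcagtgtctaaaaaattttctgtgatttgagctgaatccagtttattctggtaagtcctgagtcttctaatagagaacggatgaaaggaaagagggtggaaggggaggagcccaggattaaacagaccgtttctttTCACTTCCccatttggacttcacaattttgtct
Fcgr3: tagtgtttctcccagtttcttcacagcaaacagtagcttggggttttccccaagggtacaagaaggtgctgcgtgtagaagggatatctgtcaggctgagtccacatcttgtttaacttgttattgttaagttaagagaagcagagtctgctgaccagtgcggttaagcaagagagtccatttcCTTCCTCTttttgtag
Searched as GGAAGTGA or AGAGGAAG on both strands of 250 bases, the motif was found in 5 of the 11 higher genes of this list that have a promoter in the table (45.5%), namely *Fcgr1*, *Fcgr2b*, *Fcgr3*, *Fcgr4* and *Fcrls*, against 7.98% of the compared genes, 8.97% of all higher genes and 6.10% of all promoters. A match describes the letters of the window and is no evidence of binding.

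Complement, which tags debris and synapses for removal, was higher over most of the cascade. Of 22 components and receptors 13 were higher and 0 were lower, with a median of 0.78. *C4b*, which encodes the component cleaved by the first complex of the classical pathway, was at 0.42 and 0.37 in the control and at 3.59 and 3.46 after ABH, or 8.76-fold higher. *C1qa*, the gene of a recognition subunit, was at 1.70 and 1.55 and then at 3.78 and 3.63, or 4.21-fold higher. *Cfb*, the gene of factor B of the alternative pathway, was at least 9.12-fold higher and *C5ar1*, which encodes the receptor for the anaphylatoxin C5a, at least 6.10-fold. *C3*, the central component, differed by 0.73 ± 0.03, whereas *Clu* (−0.06) and *Cd55* (−0.01), which encode regulators, were not called. *C3*, *Clu* and *Cd55* were chosen after their values were seen.

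Innate sensing and cytokine genes followed in part. Of 20 Toll-like receptor genes and adaptors 9 were higher and 0 were lower. *Tlr2*, the receptor gene for lipopeptides, was at −3.39 and −3.50 in the control and at −0.36 and −0.37 after ABH, or 8.46-fold higher, and its partner *Tlr1* was higher by 2.41, whereas the adaptor *Myd88* (0.53) was not called. Of 24 IL-1 and TNF pathway genes 7 were higher and 0 were lower, with a median of 0.44. *Tnfrsf1b*, the gene of the second TNF receptor, was 4.27-fold higher and the cytokine gene *Il1b* 1.73-fold, while *Nlrp3*, an inflammasome sensor gene, differed by −0.69 and was not called with both dyes. *Myd88*, *Il1b* and *Nlrp3* were chosen after their values were seen.

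Chemokine ligands were among the largest changes and chemokine receptors were not. Of 24 ligand genes 13 were higher and 1 was lower (median 1.33), and of 16 receptor genes 2 were higher and 1 was lower (median −0.10). *Cxcl10*, the gene of an interferon-induced ligand that draws T cells, was at −4.30 and −4.36 in the control and at 0.72 and 0.84 after ABH, or 34.4-fold higher. *Ccl2*, the main monocyte attractant, was at −4.21 and −4.15 and then at −0.16 and 0.02, or 17.2-fold higher. *Ccl3* and *Ccl7*, ligands for monocytes and macrophages, were not well above background in the control and were at least 21.5-fold and at least 16.4-fold higher, and *Ccl5* was 11.4-fold higher. None of the arrays of the 2 pools overlapped for these genes, which the call with both dyes largely sets. *Cxcl9*, which is induced by interferon gamma, was lower by 1.35 ± 0.11 at levels of −4.61 and −4.00 in the control, close to background, and was chosen after its value was seen. *Cxcr4*, the receptor gene for the stromal ligand *Cxcl12*, was at least 5.37-fold higher, while *Cxcl12* itself differed by 0.16 and was chosen after its value was seen.

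Genes of blood leukocytes other than macrophages gave a mixed picture. Of 11 neutrophil genes 5 were higher and 0 were lower. *S100a8* and *S100a9*, which encode the calcium-binding pair of neutrophils and activated myeloid cells, were 8.36-fold and 4.96-fold higher. The granule gene *Camp* was at −1.26 and −1.40 in the control and at −1.29 and −1.47 after ABH, a difference of −0.05. The granule protease gene *Mmp8* was at least 3.81-fold higher, *Retnlg* at least 2.44-fold and the granule gene *Lcn2* 1.80-fold. The summed level of the 4 neutrophil markers was −0.46 and −0.61 in the control and 1.03 and 0.96 after ABH. Of these markers only *S100a8* and *S100a9* were called, *Camp* was not, and *Ngp* was not compared. Of 20 T cell genes 0 were higher and 6 were lower (median −0.37), and of 6 B cell genes 1 was higher and 3 were lower. *Cd3e*, a subunit of the T cell receptor complex, was at 0.90 and 0.64 in the control and at 0.60 and 0.62 after ABH. *Cd8a*, the coreceptor gene of cytotoxic T cells, was at −4.08 and −2.40 in the control and not well above background after ABH, at least 5.98-fold lower. *Blk*, a kinase gene of B cells, was at least 3.93-fold lower, whereas *Cd79b*, an antigen receptor subunit, was higher by 1.47. Each of these lymphocyte genes except *Cd3e* lay in the lowest quartile of signal, where 1036 of all 4079 genes were lower. The lower T cell genes also included *Eomes* and *Tbx21*, which are in the list of olfactory bulb neuron genes as well. Red blood cell genes were also higher, with 4 of 9 called: the heme synthesis gene *Alas2* was at −0.48 and −0.61 in the control and at 1.68 and 1.49 after ABH, and the globin gene *Hbb-bs*, which has near-identical copies, was 3.96-fold higher. The summed level of the red blood cell markers was 5.23 and 5.04 in the control and 5.76 and 5.65 after ABH, and the part of blood left in the tissue in any of these differences was not tested.

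Genes induced by interferon were the immune list with the most members called. Of 33 genes 27 were higher and 0 were lower, with a median of 1.34. *Ifi27l2a* was at −1.5 and −1.46 in the control and at 2.14 and 2.23 after ABH, or 12.7-fold higher. *Oas1a*, the gene of an oligoadenylate synthetase that senses double-stranded RNA, was at −1.69 and −1.64 and then at 1.04 and 1.07, a difference of 2.72 ± 0.02, and a second probe gave 2.32. *Ifit1*, which encodes a protein that binds foreign RNA caps, was at −2.69 and −2.73 and then at −0.93 and −0.80, or 3.59-fold higher. *Isg15*, the ubiquitin-like modifier, was at 0.53 and 0.43 and then at 2.40 and 2.35, or 3.72-fold higher. All 4 genes were separated by more than the difference between dyes, which the call with both dyes largely sets. *Bst2*, an antiviral membrane protein, and *Oasl2* were 4.95-fold and 5.25-fold higher. *Stat2* (0.42), which encodes a transcription factor below the interferon receptors, was not called. *Ifit1*, *Isg15* and *Stat2* were chosen after their values were seen.

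The promoters of these genes show the element by which they are usually grouped. The 200 bases before the annotated start of 3 of them are given (RefSeq, GRCm38.p6), 5′ to 3′ on the strand of the gene, with each match to GAAANNGAA on either strand in capitals, overlapping matches run together. *Ifit1* lies at chr19:34640689-34640888 (plus strand), *Isg15* at chr4:156200819-156201018 (minus strand) and *Oas1a* at chr5:120907526-120907725 (minus strand).
Ifit1: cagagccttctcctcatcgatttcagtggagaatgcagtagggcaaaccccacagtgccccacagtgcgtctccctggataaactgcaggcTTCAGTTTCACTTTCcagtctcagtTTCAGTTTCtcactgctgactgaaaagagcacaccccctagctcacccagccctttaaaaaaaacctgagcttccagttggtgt
Isg15: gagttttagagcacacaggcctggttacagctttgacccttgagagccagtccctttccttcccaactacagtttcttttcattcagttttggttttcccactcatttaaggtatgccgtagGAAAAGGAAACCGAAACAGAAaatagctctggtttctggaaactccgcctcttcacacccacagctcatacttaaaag
Oas1a: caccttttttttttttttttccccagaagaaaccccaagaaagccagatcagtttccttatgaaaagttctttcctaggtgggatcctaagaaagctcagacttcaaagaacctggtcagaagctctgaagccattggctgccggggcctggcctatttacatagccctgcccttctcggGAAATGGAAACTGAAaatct
The stretch of *Ifit1* holds 3 matches, that of *Isg15* 3 and that of *Oas1a* 2. Of the 21 higher interferon-stimulated genes that have a promoter in the table, 13 (61.9%) hold the motif in the 250 bases before the start, among them *Cxcl10*, *Bst2*, *Gbp2*, *Ifit3*, *Irgm1* and *Rsad2*. The motif was held by 7.64% of the compared genes, by 13.8% of all higher genes, by 9.28% of all lower genes and by 7.13% of all promoters. The list was assembled from genes known for interferon induction, so the share describes the list as well as these data.

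Antigen presentation genes rose with them. Of 15 MHC class I genes 10 were higher and 1 was lower (median 0.83), and of 12 MHC class II genes 6 were higher and 0 were lower (median 1.1). *H2-Ab1*, a class II chain gene, was at −0.98 with both dyes in the control and at 1.40 and 1.45 after ABH, or 5.30-fold higher, and *Cd74*, the invariant chain gene, was 3.58-fold higher. *H2-K1*, a class I heavy chain gene, was at 2.29 and 2.36 and then at 3.99 and 3.91, or 3.09-fold higher. The immunoproteasome subunit gene *Psmb8* was 3.34-fold higher. *Nlrc5*, the regulator of class I genes, was lower by 0.88 ± 0.01 in the lowest quartile of signal and was chosen after its value was seen. H2 genes have close copies and alleles that may share probe signal.

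Outside the immune lists, the list of the extracellular matrix had the highest median. Of 34 collagens and scar matrix genes 27 were higher and 0 were lower, at 1.51. *Col1a1*, the gene of the fibrillar collagen of scars and skin, was at −0.93 and −0.67 in the control and at 3.90 and 3.85 after ABH, or 25.6-fold higher. *Col3a1* was at −1.71 and −1.77 and then at 2.97 and 2.90, with the same fold. *Col1a2*, which was already at 1.41 and 1.30 in the control, was 11.2-fold higher. These collagen genes had been brighter in the young control pools, where *Col1a1* was at a mean level of 1.46 at P7 and 1.07 at P14 before −0.26 at P35, and the ABH 1 week level lay above all of them. *Postn*, which encodes the matrix protein periostin, was 9.58-fold higher and *Thbs1*, the gene of a secreted matricellular protein, was higher by 2.36. Of all 35 collagen genes by name 20 were higher and 0 were lower. *Fbln2* (0.11), *Sparc* (0.14) and *Bgn* (−0.36) were not called. *Thbs1*, *Fbln2*, *Sparc* and *Bgn* were chosen after their values were seen.

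Enzymes that cut the matrix went in several directions. Of 22 metalloproteinase and inhibitor genes 9 were higher and 3 were lower. *Mmp13*, the gene of a collagenase of bone and scar, was not well above background in the control and was at −0.51 and −0.44 after ABH, at least 42.0-fold higher. *Mmp2*, which encodes a gelatinase, was 6.47-fold higher and *Timp1*, the inducible inhibitor, was at −3.73 and −3.75 and then at −0.37 and −0.43, or 10.1-fold higher. *Mmp9*, another gelatinase, differed by 0.35 and was not called, and *Mmp10* and *Adamts5*, near background in the control, were at least 2.74-fold and at least 3.05-fold lower. *Mmp9*, *Mmp10* and *Adamts5* were chosen after their values were seen. The promoter of *Mmp13* is shown because it holds the AP-1 motif TGANTCA, which is known from collagenase genes. It lies at chr9:7272314-7272513 on the plus strand (RefSeq, GRCm38.p6), is written 5′ to 3′ and has the motif in capitals.
Mmp13: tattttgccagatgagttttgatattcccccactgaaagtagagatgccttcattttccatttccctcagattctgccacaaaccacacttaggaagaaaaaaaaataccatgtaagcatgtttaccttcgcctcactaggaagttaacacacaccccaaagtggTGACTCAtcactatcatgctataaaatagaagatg
The AP-1 motif was found in 2 of the 8 higher genes of this list with a promoter, *Mmp13* and *Mmp3*, in 9.93% of all higher genes, in 9.84% of all lower genes and in 6.19% of the compared genes. The shares of higher and of lower genes were alike.

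Growth factors of the TGF-beta family and the lining of the brain showed smaller differences. Of 30 TGF-beta genes 8 were higher and 0 were lower (median 0.20). *Tgfb1*, the ligand released by macrophages, was 2.12-fold higher, *Tgfbr2*, its receptor chain, was higher by 1.04, and the target *Tgfbi* was at −0.70 and −0.68 in the control and at 1.39 and 1.32 after ABH. *Gdf15*, a stress-induced member of the family, was at least 7.36-fold higher. Of 26 leptomeningeal genes 7 were higher and 0 were lower (median 0.40). *Dcn*, the proteoglycan gene decorin, was 2.44-fold higher and *Igfbp2*, an IGF binding protein gene of meninges, 2.54-fold. The summed level of the leptomeningeal markers was 3.04 and 3.03 in the control and 3.71 and 3.59 after ABH. Of these 5 markers only *Dcn* was called, while *Slc6a13* (0.14), *Slc22a6* (−0.08), *Slc13a4* (0.12) and *Foxc1* (0.48) were not. The summed level of the 4 ependymal markers was 0.24 with both dyes and then 0.85 and 0.83, with 3 of them called higher. The median of the longer list of 19 ependymal cilia genes was −0.05. The part of meninges or ventricle lining in the matrix differences was not tested. *Tgfbr2* was chosen after its value was seen.

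Lysosomal and lipid-handling genes accompanied the phagocyte genes. Of 39 lysosomal genes 20 were higher and 0 were lower (median 0.65). *Gusb*, the beta-glucuronidase gene that is often used as a constant reference, was at −0.36 and −0.41 in the control and at 1.57 and 1.58 after ABH, or 3.89-fold higher. The protease gene *Ctsc* was 3.86-fold higher and *Grn*, the gene of progranulin, was higher by 1.76. *Acp5*, the tartrate-resistant acid phosphatase gene of osteoclasts and activated macrophages, was at −2.54 and −2.79 and then at 1.6 and 1.51, or 18.6-fold higher. *Atp6v0d2*, a proton pump subunit gene of osteoclasts and macrophages, was at least 7.28-fold higher. Of 23 cholesterol genes 4 were higher: the efflux transporter gene *Abca1* (3.78-fold), the apolipoprotein gene *Apoc1* (5.75-fold), the cholesterol hydroxylase gene *Ch25h* (5.10-fold) and the esterification enzyme gene *Soat1* (a difference of 0.93). None of the other 19 genes of the list was called. In the iron list, 4 of 18 genes were higher, with the phagosomal iron transporter gene *Slc11a1* at 5.31-fold. *Hmox1*, the heme oxygenase gene, gave 1.86 by the probe used and 0.14 by a second probe, and its direction is therefore uncertain.

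Genes of cell division were higher as a group. Of 41 cell cycle genes 28 were higher and 0 were lower, with a median of 1.28. *Ube2c*, the ubiquitin-conjugating enzyme gene of mitosis, was at −3.09 and −3.44 in the control and at −0.72 and −0.86 after ABH, or 5.55-fold higher. *Cdca3* was 6.26-fold higher, *Pbk*, a mitotic kinase gene, 15.0-fold, and *Top2a*, the topoisomerase gene of dividing cells, at least 6.66-fold. The control arrays lay below the injured arrays for each of them, as the call with both dyes largely sets. *Mki67*, the proliferation marker, was higher by 2.34 and was chosen after its value was seen. For *Cdk1*, the central mitotic kinase, the probe used was higher by at least 13.3-fold and a second probe was lower by 1.79, so the gene has no settled direction. In the P7 control, where the cortex still adds glial cells, *Ube2c* had a mean level of −0.20 and *Cdca3* of −0.46, both above the ABH 1 week levels. Replication genes were mixed, with *Mcm3* (1.40) higher and *Pcna* (0.26) and *Mcm5* (0.30) not called. *Mcm3*, *Pcna* and *Mcm5* were chosen after their values were seen.

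**Figure D2:**
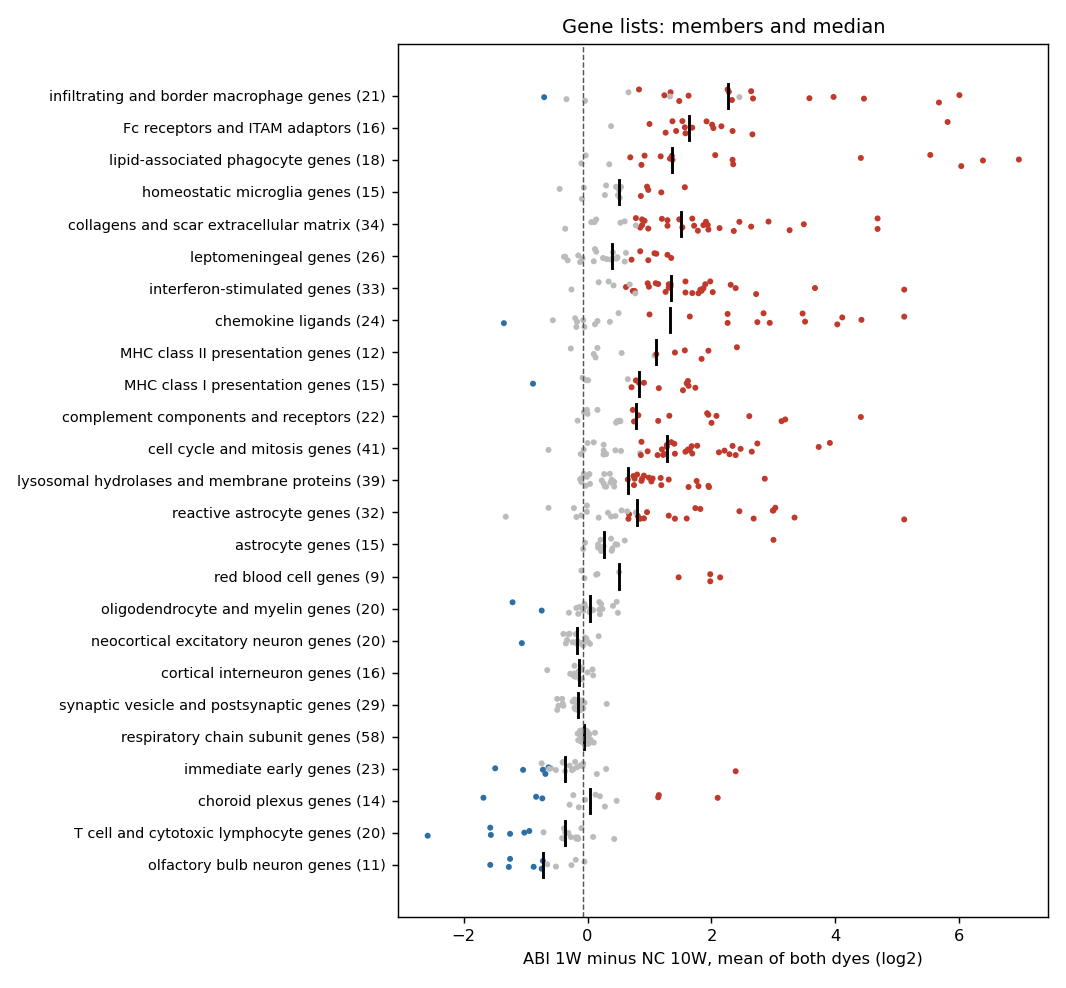
Difference between the ABH 1 week pool and the 10 weeks control (log2, mean of both dyes) for each gene compared in selected lists, with called genes in color a bar at the median of each list, the number of genes in brackets and a dashed line at the median of all genes (−0.08). The medians lie at 2.26 for macrophage genes, 1.51 for scar matrix, 1.34 for interferon-stimulated and 1.28 for cell cycle genes, and at −0.16 for synaptic genes.

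Astrocyte genes were examined as those of the reactive state and those of the resting cell. Of 32 reactive astrocyte genes 18 were higher and 0 were lower (median 0.79). *Gfap* was at 1.12 and 1.21 in the control and at 4.15 and 4.17 after ABH, a difference of 3.0 ± 0.05 or 8.01-fold. Its other probes gave 2.99 and 3.41. *Emp1*, a membrane protein gene of reactive astrocytes, was 7.95-fold higher, and *Serpina3n*, a secreted protease inhibitor gene, was at −1.43 and −1.40 and then at 1.22 and 1.30, or 6.39-fold higher. Several members, among them *Cxcl10*, *Timp1* and *Vim*, are also expressed by macrophages or fibroblasts. *Nes* (−0.01) and *Stat3* (0.33) were not called. Of 15 genes of astrocytes at rest 1 was higher, *Gfap* itself. *Aqp4*, the water channel gene of astrocyte endfeet, was at 1.48 and 1.29 and then at 2.06 and 1.90, a difference of 0.60 that reached 1.5-fold with 1 dye only, and by another probe it was 1.93-fold higher and called. The glutamate transporter gene *Slc1a2* differed by 0.17, and the potassium channel gene *Kcnj10* of astrocytes was 1.55-fold higher. *Serpina3n*, *Vim*, *Nes* and *Stat3* were chosen after their values were seen.

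Oligodendrocyte and vascular genes changed little. Of 20 myelin genes 0 were higher and 2 were lower, with a median of 0.04. *Mobp* and *Mog*, which encode proteins of the myelin sheath, differed by −0.15 and −0.18 and were not called. *Ermn*, a late oligodendrocyte gene, was lower by 0.74 by the probe used and differed by 0.01 by a second, and *Myrf*, the myelin transcription factor gene, was lower by 1.21 ± 0.60 at levels of −3.88 and −4.43. Of 26 endothelial genes 3 were higher and 1 was lower. *Vwf*, the clotting factor gene of vessel walls, was 1.79-fold higher, *Angpt2*, a ligand gene of vessel remodeling, 2.08-fold and the adhesion molecule gene *Icam1* 1.91-fold, while *Selp*, the P-selectin gene, was lower by 0.88. The tight junction gene *Cldn5* differed by 0.04.

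Neuronal genes differed little. Of 20 excitatory neuron genes 0 were higher and 1 was lower (median −0.17), of 16 interneuron genes none was called (median −0.13), of 29 synaptic genes none was called (median −0.16), and of 58 respiratory chain genes none was called (median −0.05). *Tbr1*, a deep-layer transcription factor gene, was at 4.61 and 4.79 in the control and at 4.46 and 4.58 after ABH. *Pvalb*, the calcium buffer gene of fast-spiking interneurons, was at 4.43 and 4.34 and then at 4.22 and 4.13. These differences were small and lay below 0, as did the median of all genes. *Slc17a7*, the vesicular glutamate transporter gene, differed by −0.44 with Cy3 and by −0.05 with Cy5. The largest differences of the synaptic list were those of *Gria3*, a glutamate receptor subunit gene, and *Shank1*, a scaffold gene, at −0.49 each. Over the alternative settings the medians of these 4 lists lay between −0.23 and 0.31, so their sign is not settled.

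Immediate early genes, which neurons transcribe within minutes of activity, included 5 lower and 1 higher of 23 genes, with a median of −0.36 that lay between −0.41 and −0.00 over the alternative settings. *Egr2* was at 0.85 and 0.90 in the control and at −0.18 and −0.14 after ABH, a difference of −1.04 ± 0.01. *Egr1* was at 5.01 and 5.29 and then at 4.39 and 4.56, a difference of −0.68 ± 0.08. *Egr4* was at 3.70 and 3.79 and then at 3.04 and 3.02. All of these encode zinc finger transcription factors. The arrays of the pools did not overlap for any of them, which the call with both dyes largely sets. *Arc*, which encodes a protein that trims glutamate receptors at synapses, was lower by 0.63 ± 0.05, and *Egr3* was at least 2.82-fold lower near background. *Fos* (−0.59), *Fosb* (−0.74), *Npas4* (−0.62) and *Bdnf* (−0.40) were below 0 without reaching the limit with both dyes. *Atf3*, which is induced by axon injury and by inflammation, was at −3.66 and −4.15 and then at −1.51 and −1.53, or 5.22-fold higher. Over the same settings the difference of *Egr2* stayed between −1.21 and −0.68, that of *Egr1* between −0.75 and −0.32 and that of *Egr4* between −0.90 and −0.36, so that *Egr1* and *Egr4* did not reach 1.5-fold in each setting. *Arc*, *Fos*, *Fosb*, *Npas4* and *Bdnf* were chosen after their values were seen.

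The purpose of the array experiment was to compare the cortex from which new corticospinal projections could arise, and genes of axon growth and guidance were examined for this reason. Of 29 growth and plasticity genes 6 were higher and 0 were lower (median −0.03). *Pirb* and *Atf3*, described above, are 2 of them. *Igf1*, which encodes a growth factor of microglia and neurons, gave 1.36 by the probe used and −0.06, 3.56 and 3.63 by other probes. *Tubb2b*, a tubulin gene of growing neurites, was at 3.89 and 4.04 in the control and at 4.84 and 4.94 after ABH, or 1.89-fold higher, and *Cntf*, a survival factor gene of astrocytes, was 1.81-fold higher. Other growth genes were not called: *Gap43* was at 5.13 and 5.14 in the control and at 5.08 and 5.09 after ABH, and *Sprr1a* differed by 0.12. Of 50 guidance genes 2 were higher and 0 were lower (median −0.11). The share of 4.0% higher lay below the 5.72% of all genes compared. The 2 genes were *Sema4d* (1.73-fold) and its receptor family member *Plxnb2* (1.64-fold). Of 14 immature neuron genes 2 were higher and 1 was lower (median −0.02). The surface protein gene *Cd24a* was 2.08-fold and *Igfbpl1* 1.70-fold higher, although *Igfbpl1* differed by −0.49 against the P35 control. *Eomes*, a transcription factor gene of intermediate progenitors that is also in the T cell and olfactory bulb lists, was at least 2.98-fold lower. *Dcx*, which marks migrating neurons, differed by 0.00. *Gap43*, *Sprr1a* and *Dcx* were chosen after their values were seen.

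The genes that were lower had another profile. Of the 1132 lower genes 1036, or 91.5%, lay in the lowest quartile of signal, against 342 of the 934 higher genes (36.6%). *Olfr538*, an olfactory receptor gene, was at −2.00 and −2.10 in the control and at −4.87 and −4.11 after ABH, the largest fall among genes well above background on all 4 arrays. Its level was −4.06, −4.07 and −3.51 in the P7, P14 and P35 controls, −4.41 and −4.37 in the pools 1 and 4 weeks after neonatal hemisuction, and −2.04 in the ABH 4 weeks pool. Only the 10 weeks control and the ABH 4 weeks pool were thus high. *Olfr1280* and *Olfr141* followed the same order, with −2.33 and −2.30 and with −2.68 and −2.91 in the control. Of 332 olfactory receptor genes compared 205 were lower and 0 were higher (61.7% lower), and of 78 vomeronasal receptor genes 43 were lower and 0 were higher. Over all genes compared 6.94% were lower, and in the lowest quartile of signal 1036 of 4079 were. That quartile held 297 of the 332 olfactory and 67 of the 78 vomeronasal receptor genes. The median level of the 332 olfactory receptors was −3.55 in the 10 weeks control and −3.55 in the ABH 4 weeks pool. It lay between −4.99 and −4.44 in the other 6 pools, with −4.74 in the ABH 1 week pool. The 332 are those of 1070 on the array that were well above background in the 10 weeks control or the ABH 1 week pool. A dim gene could pass through the 10 weeks control alone, which favors a high median there and a lower call. Of the lower genes 887 were brighter in the 10 weeks control than in each of the other 3 controls. A lower gene is chosen for a high value in this control, so that count is partly set by the choice. The same count was not made over all genes compared. With the P35 control in place of the 10 weeks control 253 genes were lower, 102 of them shared, whereas 993 were higher, 783 of them shared. Probes without a gene name, set side by side only for the ABH 1 week pool and the 10 weeks control, were also lower more often than higher. Of 8837 compared probes for genome intervals 2455 were lower (27.8%) and 68 were higher, with a median of −0.48, and over all 38087 probes compared 13.6% were lower and 3.49% were higher.

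**Figure D3:**
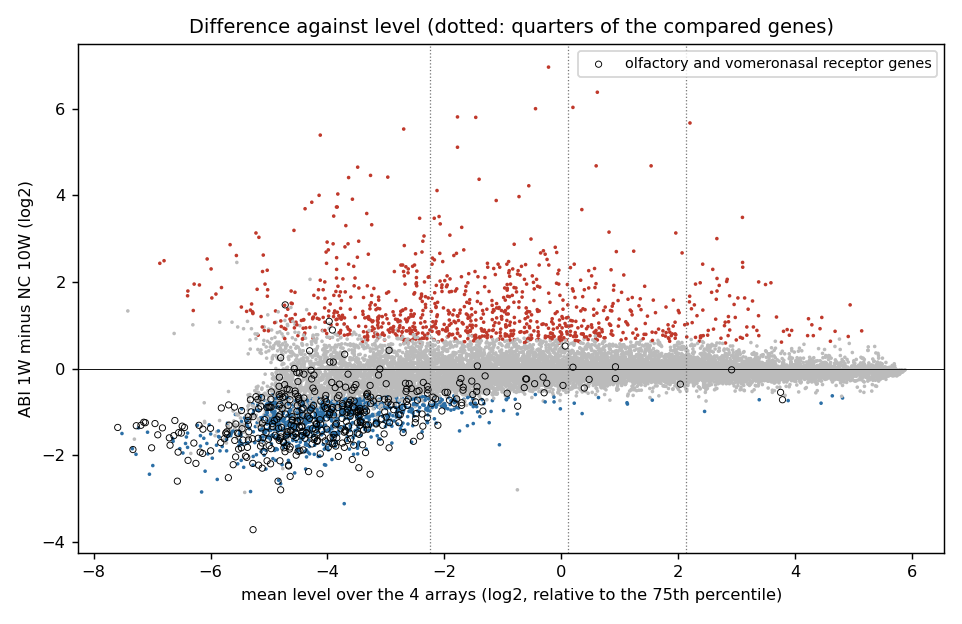
Genes called higher and lower in relation to mean signal, with the genes compared divided into quartiles from the dimmest to the brightest. Lower calls fall from 1036 in the dimmest quartile to 7 in the brightest, whereas higher calls are 342, 360, 153 and 79.

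Among genes above the median signal 232 were higher and 13 were lower. The lower ones included *Egr2*, *Egr1*, *Egr4*, *Arc* and *Ermn*, described above, and *Gab3* (−0.80), an adaptor gene of macrophage signaling, *Shc4* (−0.73), an adaptor gene of growth factor receptors, and *Tll1* (−0.79), the gene of a metalloprotease that processes collagen precursors. *Gab3*, *Shc4* and *Tll1* were chosen after their values were seen. Genes of neighboring regions bear on the dissection. Of 11 olfactory bulb genes 6 were lower (54.5%) and 0 were higher, against 6.94% lower of all genes compared and 1036 of 4079 in the lowest quartile. *Doc2g*, a gene of mitral cells, was at −0.72 and −1.03 in the control and at −2.07 and −2.20 after ABH, and *Cdhr1*, a cadherin gene of the same cells, was at −0.85 and −0.77 and then at −1.6 and −1.49. The summed level of the olfactory bulb markers was 2.09 and 1.99 in the control and 1.35 and 1.45 after ABH. *Doc2g* and *Cdhr1* were also low in the ABH 4 weeks pool, at −2.18 and −1.61. Striatal genes differed little, with 0 of 20 higher, 2 lower and a summed marker level of 5.88 and 5.73 in the control and 5.84 and 5.87 after ABH. The part of the dissection in these differences was not tested. *Ttr*, the transthyretin gene of the choroid plexus, was at −1.30 and −1.25 and then at −1.46 and −1.38, whereas it was at 5.04 and 3.95 in the neonatal pools and at 4.71 in the ABH 4 weeks pool. 

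Most of the higher genes stood above every other pool of the series. Of the 934 higher genes 725 were above all 4 controls with both dyes, and 678 were above all 7 other pools. A higher gene is chosen for a high value in this pool, so these counts are partly set by the choice. The same counts were not made over all genes compared. *Gpnmb*, *Spp1* and *Lgals3* had mean levels of −2.90, −3.11 and −1.85 in the pool 1 week after neonatal hemisuction and of −3.96, −2.75 and −2.11 in the ABH 4 weeks pool, against levels above 3 in the ABH 1 week pool. *Col1a1* was at −0.81 and *Cxcl10* at −3.30 in the ABH 4 weeks pool. *C4b* and *Gfap* remained closer, at 2.11 and 2.18. The ABH 4 weeks pool shares its control with the ABH 1 week pool, so only these levels are set side by side, and the animals of that pool were 15 weeks of age. Of the lower genes 213 were below all 4 controls and 118 below all 7 other pools, counts that are likewise partly set by the choice.

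**Figure D4:**
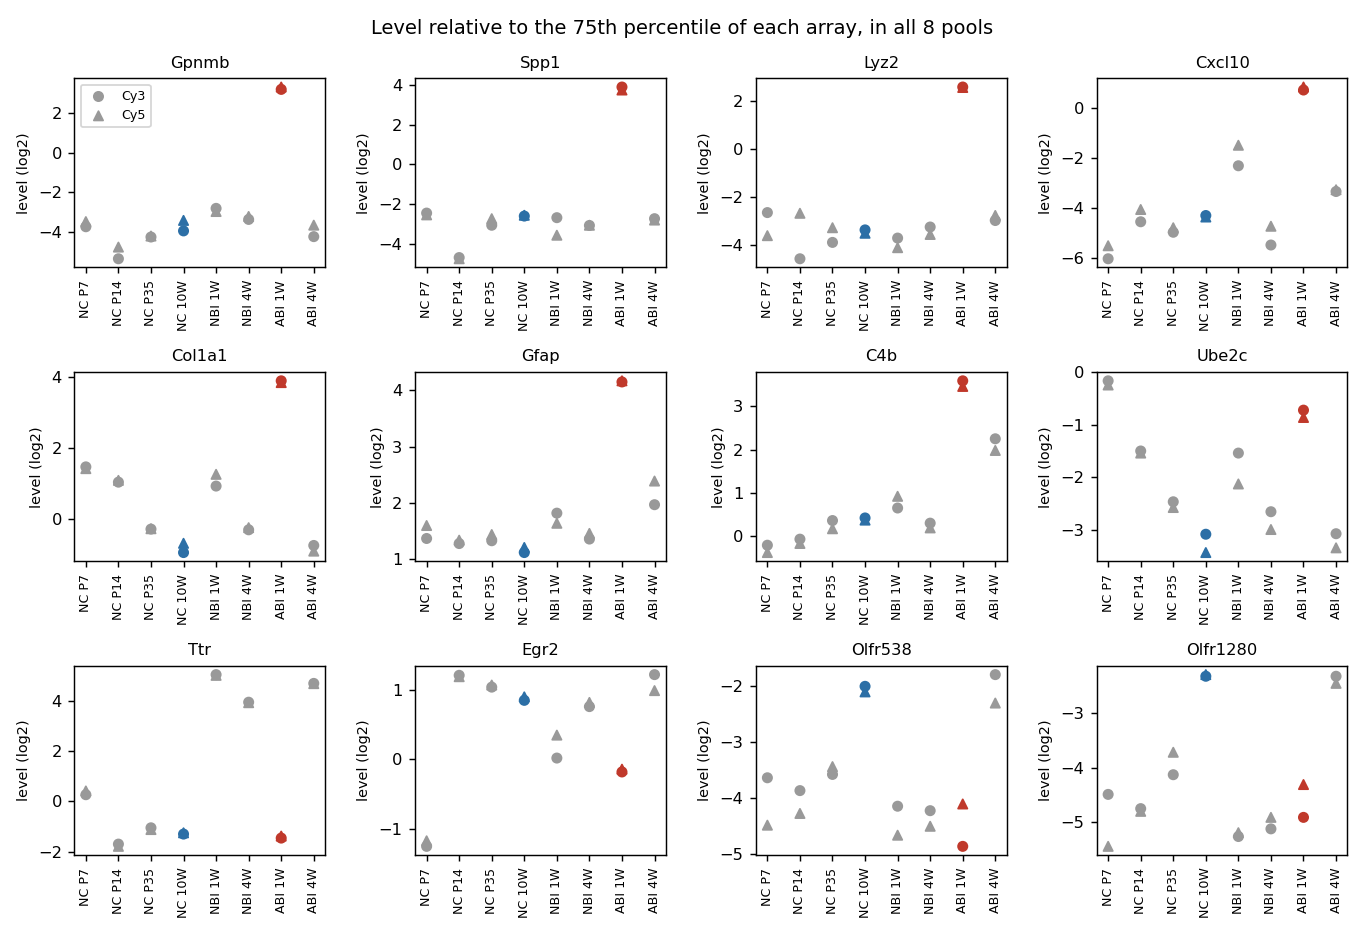
Level (log2 of the signal relative to the 75th percentile of the array) of 12 genes in all 8 pools, with circles for Cy3 and triangles for Cy5, the ABH 1 week pool in red and the 10 weeks control in blue. *Gpnmb*, *Spp1*, *Lyz2*, *Cxcl10* and *Col1a1* stand above the other pools after ABH 1 week, *Ttr* is high in 3 other operated pools, and *Olfr538* and *Olfr1280* are high in the 10 weeks control and the ABH 4 weeks pool.

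The comparison of the neonatal group at 1 week (labelled NBI 1W, operated at 7 days and 14 days of age) with the P14 control (NC P14) shares no array with the adult comparison. There 1.20% of 15471 genes were higher and 0.472% were lower under the same limits. Among the 15311 genes compared at both ages, 844 were higher in the adult and 137 in the neonatal comparison, and 33 were higher in both, which is 3.91% of the adult list and 24.1% of the neonatal list. These included *Gpnmb*, *Spp1*, *Lgals3*, *Lilrb4a*, *Cxcl10*, *Ccl2*, *C4b*, *Tlr2* and *Lcn2*. *Gpnmb* differed by 2.17 in the neonatal comparison against 6.96 in the adult, *Cxcl10* by 2.40 against 5.11, and *C4b* by 0.91 against 3.13. Each was smaller in the neonatal comparison, and the difference between the ages was not tested. Of the lower genes 670 and 71 could be compared and 30 were shared, or 4.48% and 42.3% of each list, among them *Egr2*, with −1.02 in the neonatal and −1.04 in the adult comparison, and *Selp*. In the opposite direction, 1 gene was higher in the adult and lower in the neonatal comparison and 10 were lower in the adult and higher in the neonatal. By list, 0 of 39 cell cycle genes, 2 of 34 scar matrix genes and 3 of 33 interferon-stimulated genes were higher in the neonatal comparison.

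For genes with more than 1 probe the other probes were set beside the calls. They lie on the same arrays and measure the same pools, so they share every effect of array, dye and pool. Among 163 higher genes with another compared probe, 133 of 179 other probes (74.3%) lay above 0 with both dyes and 96 (53.6%) were called higher, against 3.50% of all other probes. Among 76 lower genes 49 of 78 other probes (62.8%) lay below 0 and 31 (39.7%) were called lower, against 5.63% of all other probes. The share of all other probes was not matched for signal, and 91.5% of all lower genes lay in the lowest quartile of signal. The other probes were called in the opposite direction in 12 and 3 cases, and which of the probes reports the gene was not tested. Some probes for genome intervals rose in the same range as the named genes. The largest, at chr1:175654606-175672031 of the mm9 build on the strand that the array marks R, was at −4.72 and −4.85 in the control and at −0.65 and −0.64 after ABH, or 17.6-fold higher. Another pair on the same strand, at chr1:175653557-175671940 and at chr1:175705225-175717250, were 11.6-fold and 10.8-fold higher. No gene is named for them here, since the gene table at hand is of another build.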

How the data were processed

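Gene expression was measured in 8 RNA pools of mouse neocortex on Agilent mouse whole genome arrays, and every pool was hybridized to a Cy3 and to a Cy5 array. The deposited scanner tables hold spot intensities, which the authors quantified with Agilent Feature Extraction 11.0.1.1 (submitters' processing notes) on an array design annotated to mm9 (NCBI37). The processed signal used here had been background-subtracted by that software and was not scaled between arrays. A value table deposited by the authors holds the same intensities, rounded, with a largest difference of 0.497%, and was used for that check only. The depth of an array is its signal over background, and the number of arrays limits the precision.

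From these files the labelled channel of each array was taken, outlier and control spots were dropped, signals were floored at 1, converted to log2 and reduced by the 75th percentile of the array, and spots of the same probe were then averaged. Of 55681 probes 26582 matched a RefSeq accession (GRCm38.p6 table, used for names and promoters only), which named 20145 genes, 20134 of them with a value on all arrays, and a gene was represented by its brightest probe over the 16 arrays. Differences were taken within each dye and averaged. Where a pool was not well above background on either array, the higher of its own signal and the lowest signal of a probe well above background was used on each array, which gives a bound. The calls were tested on simulated data. Python 3.11.15 with numpy 2.4.6, pandas 2.3.3, scipy 1.17.1 and matplotlib 3.10.9 was used, with limma 3.58.1 in R 4.3.3 for the normexp correction, which took the median signal because the tables hold no mean signal.

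The members, gene lists and limits were chosen with earlier results of these data known. The 52 lists and 10 families were written from general knowledge, and the genes named in the text are the 15 with the largest rise and the 15 with the largest fall among genes well above background and not saturated on all 4 arrays, the 5 largest bounds in each direction, up to 5 called members of each list (or the 2 largest differences where none was called), the genes that the study measured by RT-PCR and the markers of each cell type, apart from some genes that are not reported here. The calls were computed again under 16 other settings and 2 more chosen after the data were seen.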

Additional observations from a re-analysis of the deposited data

Results flagged for a closer look

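*Cytip*, which encodes a protein that regulates the adhesion of leukocytes, moved in opposite directions at the 2 ages. It was at −5.05 and −5.37 in the 10 weeks control, where no array was well above background, and at −3.97 and −4.11 in the ABH 1 week pool, a difference of 1.09 or at least 2.13-fold higher. In the neonatal comparison at 1 week its mean level was −4.07 in the P14 control and −7.34 in the operated pool, where no array was well above background, and the difference of −1.88 is therefore a bound: the gene was lower by at least that much. Both dyes of each comparison had the same sign, and the difference between the ages was not tested. All of these levels lay in the lowest quartile of signal.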

How the results depend on the processing

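The count of lower genes moved more with the settings than the count of higher genes. With arrays scaled to their median 1822 genes were higher and 537 lower (22.8% lower), and after quantile normalization 485 were lower (26.7%). Without scaling the share of lower calls was 47.8%, with differences centered on their median, a setting added after the data were seen, 47.5%, and with a normexp background correction 39.1% of calls (465 genes) were lower. With the P35 control 253 genes (20.3%) were lower. Without the background filter 2227 (65.4%) were lower, and with all 4 arrays required to be well above background 614 (42.6%). With 2-fold limits 506 genes were higher and 435 lower (46.2%), and with limits of 1.5-fold and 0.75-fold 64.1% were lower. Over every probe 5166 were lower (79.5%). Among genes above the median signal, also added after the data were seen, 232 were higher and 13 lower (5.31%). With a single dye the lower calls numbered 1442 (Cy5 alone) to 2502 (Cy3 alone), the higher calls 1238 to 1301, and the share of lower calls was 52.6% to 66.9%. Of 2177 values of the 182 named genes that were called 4 changed sign under these settings, all with the P35 control: *Icos* (0.01), *Enpp6* (−0.37), *Igfbpl1* (−0.49) and *Slc4a5* (0.14). Of 828 values of the 69 named genes that were not called 72 changed sign, in 41 genes. Of the 52 list medians 26 changed sign in at least 1 setting, among them those of the neuronal lists, whereas those of the phagocyte, macrophage, complement, interferon, matrix, lysosomal and cell cycle lists did not. The cause of the changes was not tested. No paired analysis was possible because the replicate number marks the dye, every difference is already taken within a dye, and no test was run.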

Other observations

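Several gene groups that respond to stress, handling or time of day gave no call or few. Of 20 circadian clock genes, 17 heat shock and unfolded protein genes and 28 ribosomal protein genes none was called, with medians of −0.20, −0.04 and −0.08. The largest clock difference was that of *Per2*, a repressor of the clock, at −0.55. Of 15 genes that respond to stress hormones 1 was higher, *Lcn2*, which is also a neutrophil and reactive astrocyte gene.

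Genes of fluid-facing epithelia did not move together. Of 19 genes of ependymal cilia 5 were higher and 0 lower (median −0.05). *Foxj1*, the master regulator of motile cilia, was at −1.28 and −1.41 in the control and at −0.67 and −0.66 after ABH. Of 14 choroid plexus genes 3 were higher and 3 lower, and the 3 higher ones, the water channel gene *Aqp1* with *Calml4* and *Steap1*, are not restricted to the choroid plexus. *Aqp1* was higher by 2.10 ± 0.51. Among 17 genes of hypothalamus and basal forebrain 5 were lower (29.4%) and 0 higher. Of all genes compared 6.94% were lower, and of the 4079 in the lowest quartile of signal 1036 were. *Chat*, the gene of acetylcholine synthesis, was at −1.25 and −1.24 in the control and at −1.93 and −1.84 after ABH, and *Oxt*, the oxytocin gene, was lower by 0.93 ± 0.24. The RT-PCR list has 12 genes, of which 7 were compared. Of these *Msr1* (at least 3.09-fold), *Cytip* (at least 2.13-fold) and *Acod1* (at least 1.84-fold) were higher and *Mov10l1* (at least 5.42-fold) was lower. *Gdf3*, a TGF-beta family member, was not called by the probe used (−0.30) and was at least 7.48-fold higher by another probe, so its direction is uncertain.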
